A study of Drosophila melanogaster with 72 samples.

Results

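The comparison set 12 libraries of whole adult males of Drosophila melanogaster with Ithaca mitochondria (haplogroup I02) beside 36 libraries with Netherlands mitochondria (haplogroups N01, N02 and N23, 12 libraries each), out of 72 libraries in the series. Libraries were chosen by the haplogroup in the labels, which is a line of the Global Diversity Lines, so no measured value entered the choice. Each haplogroup was combined with the same 6 Y haplotypes (B04, B11, N03, N07, ZH23 and ZW139), with 2 replicate libraries per combination. Males came from crosses of mitochondrial replacement mothers with Y replacement fathers, all on the nuclear background named 4361, were 3 to 5 days old, received no treatment and were pooled by 10 for each library. The 2 replicates of a combination came from separate crosses set up on the same day. All 12 I02 libraries and the first replicates of N01, N02 and N23 carry the label batch 1, and the 18 second replicates of the Netherlands lines carry batch 2, with no statement of what a batch was. Each haplogroup stands for 1 maternal line, and sons also receive their X chromosome from the mother of that line, so an effect of the mitochondria, of the maternal X and of anything else particular to the line cannot be told apart.

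Animal mitochondrial DNA encodes a small set of respiratory chain subunits together with the ribosomal and transfer RNAs that translate them, and every other mitochondrial protein comes from nuclear genes. Flies answer bacteria and fungi mainly through the Toll and Imd pathways, in which peptidoglycan receptors act through NF-kappaB factors on genes of secreted antimicrobial peptides, many of them made by the fat body. The adult midgut secretes serine proteases and maltases that break down protein and sugar from the food.

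Reads assigned to genes ranged from 2454024 to 6712459 per library (median 4617274), and from 3675890 to 6004891 in I02. Levels are given as CPM, a gene's reads from the 3' end of transcripts scaled to a common library total, so they compare 1 gene between libraries and not 1 gene with another. Reads aligned to several places, which the deposited counts leave out, made up 11.3% to 29.2% of the first replicates of I02, 10.2% to 11.3% of its second replicates and 10.0% to 20.2% in the Netherlands lines. The replicates of I02 stood apart from each other: 2295 of 12262 genes (18.7%) differed between them at an adjusted p under 0.05. Batch 2 differed from batch 1 within the Netherlands lines in 4319 genes (35.2%). Results are therefore given with I02 replicates apart for some genes and lists. How many named calls were lost with either replicate alone is given with the alternatives. CPM ranges of the Netherlands lines pool both batches, while all I02 libraries are of batch 1. All 12 tested markers of males (X-chromosome dosage compensation RNAs, accessory gland, testis and Y-linked genes) had reads in both groups. Their summed levels were 6646 to 21480 CPM in I02 and 5947 to 21510 CPM in the Netherlands lines. The Y-linked ORY and kl-3 were low, with medians of 1.05 and 1.06 CPM in I02 and lowest values of 0 and 0.289 CPM. The 7 tested yolk and eggshell genes together reached 12.3 to 39.1 CPM in I02 (median 20.7) and 8.85 to 29.2 CPM (median 14.0) in the Netherlands lines, and none of them passed the test. Their part in the results was not tested.

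Expression differed between I02 and the mean of the 3 Netherlands lines in 171 of 12262 genes (1.39%) by the quasi-likelihood test of edgeR with Y haplotype and batch in the model, at a Benjamini-Hochberg adjusted p under 0.05. Of these, 116 (0.946%) were higher with I02 mitochondria and 55 (0.449%) lower. Differences were mostly moderate, with a median absolute log2 fold change of 0.589 and 29 genes beyond 1. No gene, among the 12262, had all I02 libraries outside the range of the Netherlands libraries (0%). Within batch 1, where I02 met 18 Netherlands libraries, 31 of 12452 genes (0.249%) were called, 25 higher (0.201%) and 6 lower (0.0482%). All 31 belonged to the 171, of which they were 18.1%, and all 170 called genes with a value in batch 1 had the same direction there. As every I02 library is of batch 1, the batch term rests on the Netherlands lines. Both fits thus set I02 against the batch 1 level of those lines, so the shared direction is built in and supports nothing. The count of 171 was 83 without mtN23_YZW139 replicate 1, 90 without mtI02_YZW139 replicate 2, 97 without mtI02_YN07 replicate 2, 99 without mtI02_YB11 replicate 2 and also without mtN01_YN03 replicate 1. It was 107 without mtN02_YZH23 replicate 1, 111 without mtN01_YN07 replicate 1, 278 without mtI02_YB04 replicate 1 and 333 without mtN23_YB04 replicate 1. The last of these libraries had 20.2% of its reads aligned to several places. With only the first replicates of I02, 446 of 12527 genes were called (3.56%), of which 69 were among the 171. With only the second replicates it was 1702 of 12491 (13.6%), of which 133 were among the 171. Both settings set I02 against the batch 1 level of the Netherlands lines, which comes from their first replicates only. For the second replicates of I02, haplogroup and replicate number therefore cannot be told apart.

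Against the single lines, 65 genes (0.53%) differed between I02 and N01, with 42 higher in I02 (0.343%) and 23 lower (0.188%). Between I02 and N02 31 genes differed (0.253%), 22 higher (0.179%) and 9 lower (0.0734%). Between I02 and N23 it was 124 (1.01%), 71 higher (0.579%) and 53 lower (0.432%). In batch 1 only these counts were 9 against N01 (3 higher and 6 lower), 2 against N02 and 12 against N23 (5 higher and 7 lower), so that lower genes were the more numerous there against N01 and N23. Without 1 library the counts spanned 27 to 156, 19 to 42 and 44 to 186. All 171 genes had the same sign against each of the 3 lines. Of the 171, 13 were called against every line, 20 against 2 lines, 78 against 1 and 60 against none of them singly. The 3 comparisons share the I02 libraries, and their mean chose the 171, so the shared sign describes these genes and supports nothing. The Netherlands lines differed among themselves in 20 genes (0.163%), and in batch 1 only in 3. Of the 20, 12 lie on the X chromosome (0.653% of 1839 tested there). On 3R it was 5 (0.166%), on 3L 1 (0.0426%), on 2L and 2R none, and in the mitochondrial genome 2 of 36 (5.56%). Genes called for I02 made up 19 of 1839 tested on the X (1.03%), 37 of 2352 on 2L (1.57%), 37 of 2468 on 2R (1.5%), 33 of 2347 on 3L (1.41%) and 43 of 3020 on 3R (1.42%). None of 87 genes on chromosome 4 was called.

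Of the 171 genes, 146 had the same sign with all 6 Y haplotypes and 25 with 5 of them, against 9.48% of all tested genes with the same sign in all 6. Because the pooled difference chose the 171, this count describes them and supports nothing. The test of the difference between Y haplotypes called 0 genes by edgeR, with 648 at an unadjusted p under 0.05 and a lowest adjusted p of 0.071. By the same test limma-voom called 0 and DESeq2 39, and edgeR on all 72 libraries 12. Each combination of haplogroup and Y haplotype has 2 libraries, so leaving out 1 rests that combination on a single library. Without mtI02_YN03 replicate 2 this was replicate 1, with 29.2% of its reads aligned to several places. The count of 0 rested on single libraries, as it was 483 without mtI02_YN03 replicate 2, 5 without mtI02_YZW139 replicate 2 and 2 without mtI02_YB11 replicate 2. It was 1 without mtI02_YB11, mtN01_YB11, mtN02_YZH23 or mtN23_YZH23 replicate 1.

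The steadiest differences lay in a few genes that were higher in I02 against every line and under every alternative. CG14245, a protein gene without a given name (3R, 26728727 to 26729341), had 308 to 1025 CPM (median 533) in I02 and 121 to 515 CPM (median 243) in the Netherlands lines. Of 12 I02 libraries, 7 lay above all 36 Netherlands libraries and the others overlapped with their upper range. The fitted difference was 1.18 ± 0.15 on the log2 scale (SE, adjusted p = 4.8e-06) and 1.18 in batch 1 alone (adjusted p = 0.000901). CG13309 (3L, 8810395 to 8811265) had 318 to 691 CPM (median 483) in I02 and 161 to 429 CPM (median 281) in the Netherlands lines, with 9 of 12 I02 libraries above all of the others. It was higher by 0.77 ± 0.10 on the log2 scale (adjusted p = 1.6e-06). CG2003 (3R, 31978121 to 31990909), which had the smallest adjusted p of all genes (7.19e-07), had 11.2 to 31.2 CPM (median 20.6) and 5.28 to 16.1 CPM (median 8.72). All 12 I02 libraries lay above the median of the Netherlands libraries and 9 above their highest value, at a log2 fold change of 1.17 ± 0.14.

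The gene kkv, which encodes a chitin synthase of the cuticle and tracheae (3R, 5378093 to 5392866), was low in all groups, with 1.8 to 7.30 CPM (median 4.59) in I02 and 0.920 to 4.29 CPM (median 1.73) in the Netherlands lines. Of the I02 libraries 7 exceeded all the others, a difference of 1.21 ± 0.18 in log2 units (adjusted p = 7.62e-05). Kaz-m1, with a Kazal-type protease inhibitor domain (3R, 26014721 to 26016487), had 97.2 to 204 CPM (median 122) against 44.3 to 122 CPM (median 76.3), a log2 fold change of 0.71 ± 0.12 (adjusted p = 0.000592). Gart encodes an enzyme of purine synthesis (2L, 7014623 to 7023898) and had 42.3 to 83.4 CPM (median 57.8) in I02 against 14.3 to 73.1 CPM (median 35.6). Its difference of 0.76 ± 0.13 on the log2 scale (adjusted p = 0.000854) was called against N02 and N23 and not against N01 (0.54 ± 0.16, adjusted p = 0.0934). In the 6 genes all 12 I02 libraries, of both replicates, lay above the Netherlands median, and between the replicates only CG14245 differed, with a log2 change of -0.67 from replicate 1 to 2 (adjusted p = 0.0306). These genes were singled out after their values were seen.

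**Figure D1:**
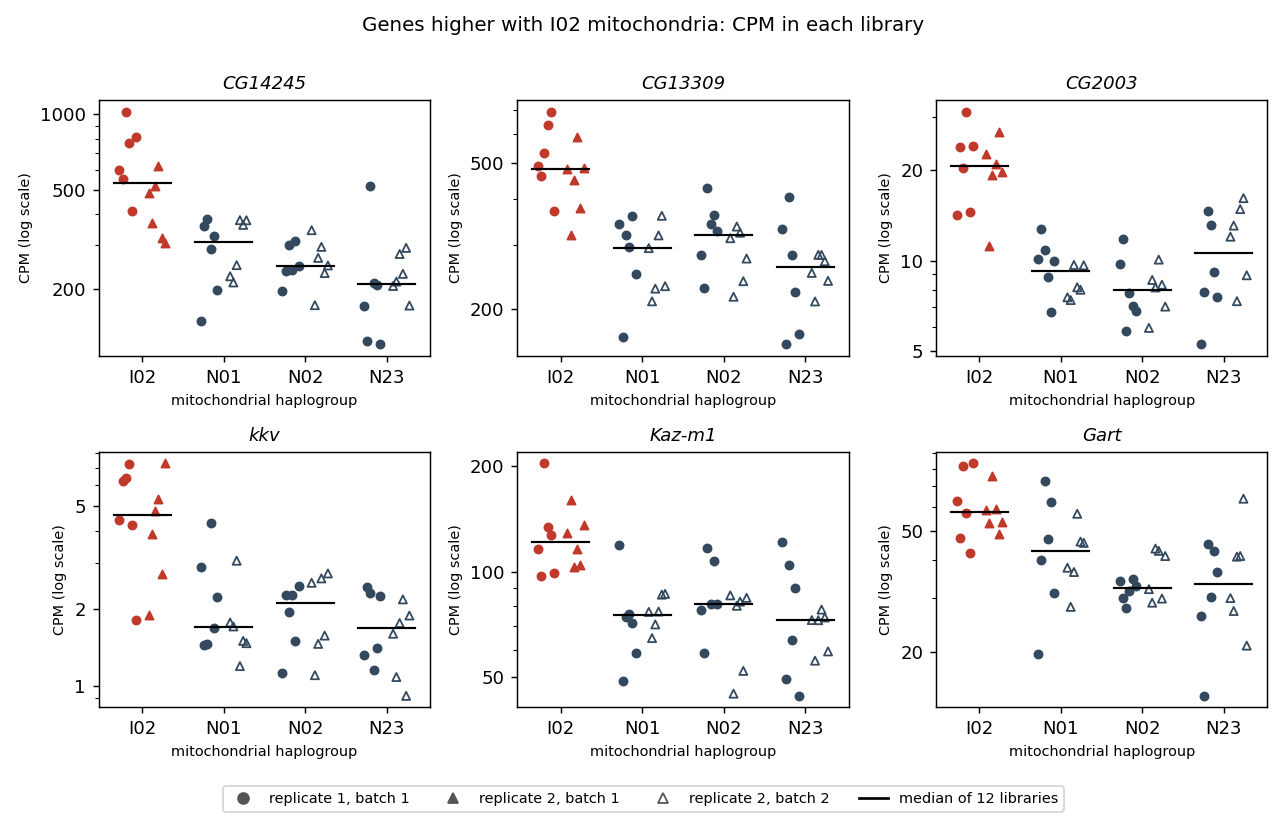
CPM on a log axis in each library of the 4 mitochondrial haplogroups for 6 genes higher in I02, with circles for replicate 1, filled triangles for replicate 2 of batch 1, open triangles for replicate 2 of batch 2, and a line at the median of 12 libraries. In each panel the I02 median stands above the medians of N01, N02 and N23, as for CG14245 with 533 CPM against 308, 248 and 210.1 CPM, while single libraries overlap.

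The largest log2 fold change among the 31 genes called in both fits was that of lncRNA:CR45936 (3L, 18243700 to 18244239), a noncoding RNA with 0.362 to 4.45 CPM (median 1.29) in I02 and 0 to 1.94 CPM (median 0) in the Netherlands lines. Its fitted difference of 3.43 ± 0.48 (adjusted p = 1.7e-05) rests on few reads, as the median Netherlands library had none, and it was called against N01 and N02 and not against N23. Further protein genes without given names were higher, CG17107 by 1.02 ± 0.14, CG9672 by 0.81 ± 0.14 and CG18473 by 0.79 ± 0.13 on the log2 scale. CG9672 and CG17107 were higher in replicate 2 of I02 than in replicate 1, by 0.59 (adjusted p = 0.0299) and 0.66 (adjusted p = 0.0176). CG6839 had 90.9 to 169 CPM (median 99.9) in I02 and 29.4 to 118 CPM (median 62.2) in the Netherlands lines, and was higher by 0.59 ± 0.11 (adjusted p = 0.00214).

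The 6 genes lower in both fits were CG17560, CG42329, fusl, CG34180, Cyp4ac2 and Nplp3. CG17560 (3R, 16617950 to 16619878) had 44.9 to 128 CPM (median 98.4) in I02 and 85.4 to 272 CPM (median 159) in the Netherlands lines, with 4 I02 libraries below all of the others and all 12 below the Netherlands median. Its log2 fold change was -0.77 ± 0.13 (adjusted p = 0.000607). Against N23 alone the difference was -0.50 ± 0.15 and was not called (adjusted p = 0.111). The gene fusl, which in flies acts in calcium entry at the synapse (2L, 5330470 to 5338073), had 6.89 to 18 CPM (median 12.6) against 10.1 to 31.5 CPM (median 16.7), a log2 fold change of -0.66 ± 0.12 (adjusted p = 0.0018) that was called against each line. CG42329 (-0.92 ± 0.17, adjusted p = 0.00166) was likewise lower against each line.

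**Figure D2:**
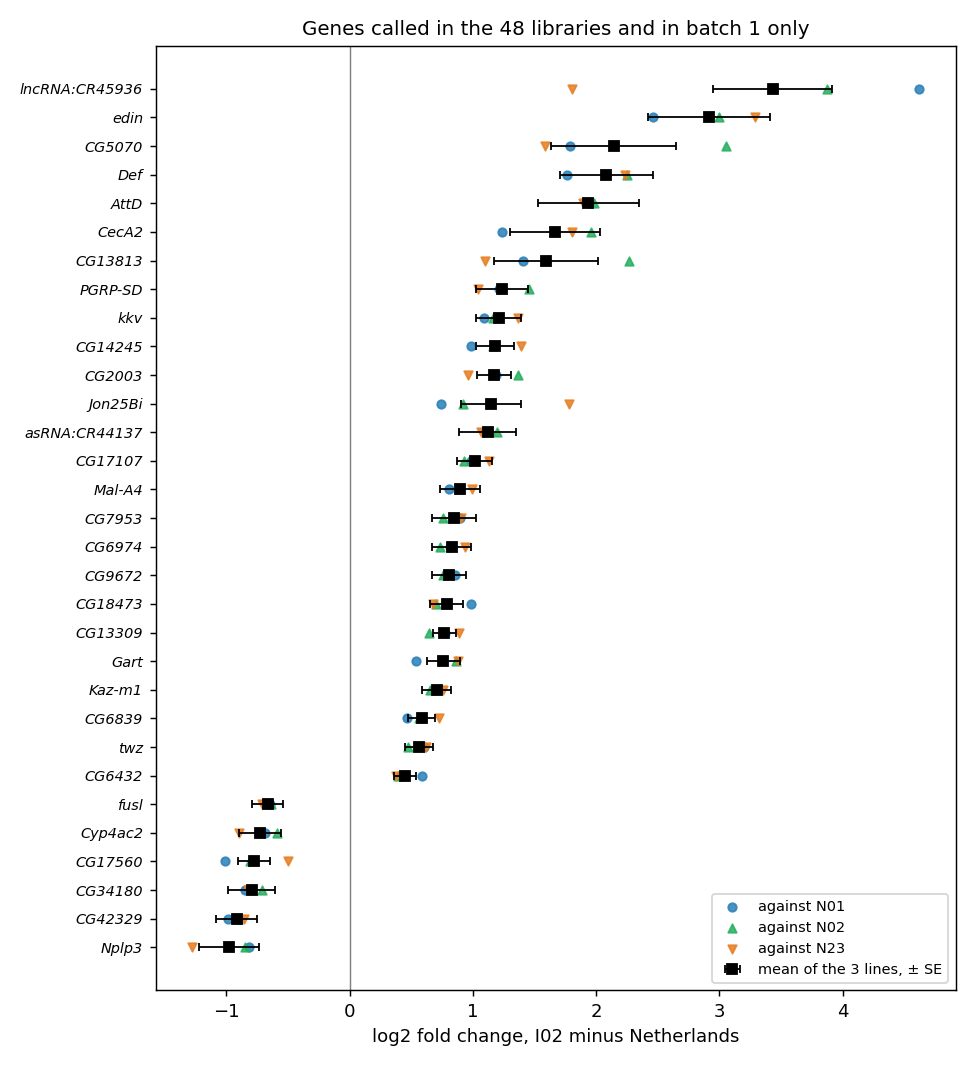
Log2 fold change of I02 minus Netherlands for the 31 genes called in the 48 libraries and in batch 1 alone, as the mean over the 3 lines with its standard error (squares) and against N01 (circles), N02 (upward triangles) and N23 (downward triangles). Every symbol of the 25 higher genes lies above 0 and every symbol of the 6 lower genes below 0. The genes were chosen by the mean over the lines, so these shared signs support nothing. The lines differ most for lncRNA:CR45936, from 1.80 against N23 to 4.62 against N01.

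Among called genes with a mean of at least 2 CPM, the 5 highest fold changes were those of the immune genes edin, Dro, IBIN, Def and AttD. Of 21 tested antimicrobial peptide genes 5 were higher in I02 (23.8%, beside 1.39% of all genes), none was lower, and the list's median log2 fold change was 1.67, beside 0.0051 for all genes. The 5 were Def, AttD, CecA2, Dro and AttB. Def encodes a defensin directed mainly against Gram-positive bacteria (2R, 10054178 to 10054576). It had 18.1 to 419 CPM (median 96.3) in I02 and 4.52 to 116 CPM (median 20.8) in the Netherlands lines, and 4 of the I02 libraries lay above all others while 2 fell below the Netherlands median. It was higher by 2.08 ± 0.38 on the log2 scale (adjusted p = 0.00129), and by 2.10 in batch 1 alone (adjusted p = 0.026).

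AttD, of the attacin family of peptides active against Gram-negative bacteria (3R, 17625268 to 17626086), had 0.543 to 13.8 CPM (median 5.03) in I02 and 0 to 9.76 CPM (median 1.00) in the Netherlands lines, higher by 1.94 ± 0.41 (adjusted p = 0.00813). CecA2, a cecropin, a membrane-disrupting peptide (3R, 30212156 to 30212568), had 2.97 to 63.0 CPM (median 19.3) against 0.565 to 30.5 CPM (median 6.07), higher by 1.67 ± 0.36 (adjusted p = 0.0104). Both were also called in batch 1 alone (adjusted p = 0.0271 and 0.0271). Dro, the peptide drosocin (2R, 14745961 to 14746714), spanned 14.4 to 1754 CPM (median 355) in I02 and 6.03 to 740.2 CPM (median 39.7) in the Netherlands lines, at a log2 fold change of 2.38 ± 0.62 (adjusted p = 0.0381). AttB (2R, 14749223 to 14750165) had 4.12 to 95.2 CPM (median 37) and 2.26 to 125 CPM (median 12.4), at 1.76 ± 0.48 (adjusted p = 0.0455). In batch 1 alone Dro and AttB were not called (adjusted p = 0.0712 and 0.0651), and leaving out 1 library ended the call of Dro in 12 and of AttB in 17 of 48 fits. AttB shares long stretches with AttA, and CecA2 with CecA1, so reads could have been left out as aligned to several places and levels within these pairs are uncertain.

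Most other peptide genes had positive fitted values that did not pass the test. DptA, a diptericin, stood at a log2 fold change of 2.12 (adjusted p = 0.0501), AttA at 2.00 (0.0591), DptB at 2.19 (0.0727), Mtk at 1.69 (0.14) and the antifungal Drs at 1.11 (0.235). In all, 19 of the 21 were fitted above 0. With the Y haplotypes in the order B04, B11, N03, N07, ZH23 and ZW139, Dro had 1341, 369.5, 774, 495, 88.5 and 730.2 CPM in replicate 1 and 180.5, 14.4, 134, 1754, 341 and 50.1 CPM in replicate 2. Replicate 1 was thus higher with 4 of 6 Y haplotypes, and the highest I02 library was mtI02_YN07 replicate 2.

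With the first replicates of I02 only, 11 of 22 tested peptide genes were called higher (median log2 fold change 2.03), beside 3.56% of all genes. With the second replicates only, it was 1 of 21 (median 0.812), beside 13.6% of all genes. The difference between the replicates was itself called for 2 of the 21 peptide genes, both lower in replicate 2, while 18.7% of all genes differed between them. One of them was AttD (-1.56, adjusted p = 0.0325). The summed level of the 21 genes was 2235 to 11910.0 CPM in I02 (median 5424) and 2060.0 to 9481 CPM in the Netherlands lines (median 3796), so that the groups overlapped almost entirely. Without mtI02_YN07 replicate 2, which had the highest sum, 3 of the genes were called, and without mtN01_YB11 replicate 1 it was 10. The library with the most reads aligned to several places, mtI02_YN03 replicate 1 (29.2%), had a sum of 8244 CPM. Without the libraries over 20% 4 of 22 were called, and with that share as a covariate 6 of 21.

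**Figure D3:**
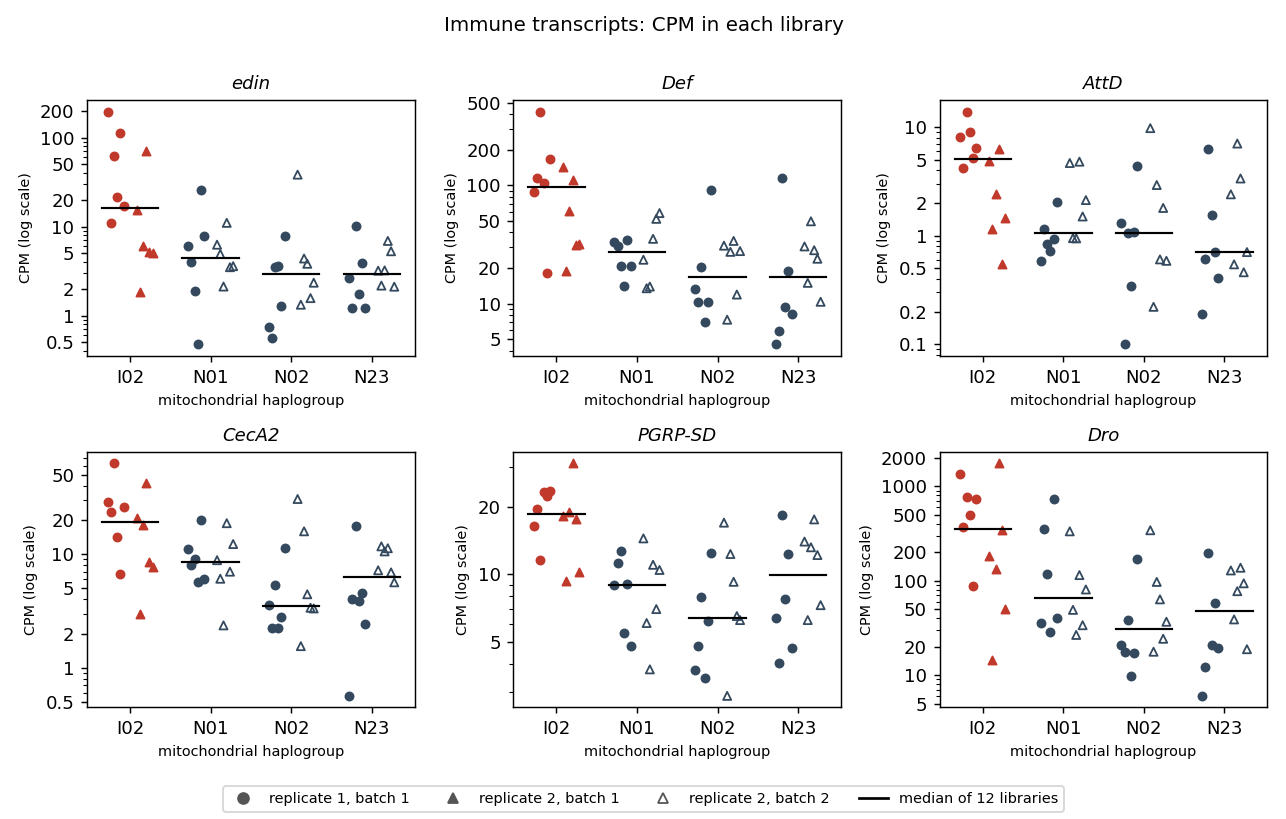
CPM on a log axis in each library of the 4 haplogroups for 6 immune genes, with circles for replicate 1, filled triangles for replicate 2 of batch 1, open triangles for replicate 2 of batch 2, and a line at the median of 12 libraries. Values below 0.1 CPM are drawn at 0.1. The I02 medians stand above those of each Netherlands line, as for edin with 16.1 CPM against 4.49, 2.94 and 2.92, and the I02 libraries spread over a range of 1.83 to 196 CPM for that gene.

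Of 16 tested other genes induced by infection, 4 were higher (25%, beside 1.39% of all genes) and none lower. The 4 were edin, IBIN, Listericin and PGRP-SD, and the list's median was 0.66. Without mtI02_YN07 replicate 2, 2 of the 4 were called. The gene edin, a short secreted protein induced by infection (3L, 17494880 to 17495300), had 1.83 to 196 CPM (median 16.1) in I02 and 0.477 to 38.4 CPM (median 3.52) in the Netherlands lines. In replicate 1 the 6 libraries reached 11.1 to 196 CPM (median 41.5), and in replicate 2 1.83 to 71.2 CPM (median 5.61). Its log2 fold change of 2.91 ± 0.49 (adjusted p = 0.000594) was called against each line and in batch 1 alone, and was not called with the second replicates of I02 only (adjusted p = 0.0819). IBIN, another short infection-induced peptide (2R, 17671068 to 17671295), had 0.239 to 49.9 CPM (median 3.13) in I02 and 0 to 11 CPM (median 1.23) in the Netherlands lines, higher by 2.27 ± 0.58 (adjusted p = 0.0373). IBIN was not called in batch 1 alone (adjusted p = 0.0651), nor in 8 of the 48 fits without 1 library. Listericin, an antibacterial protein first described in flies infected with Listeria (2R, 11241745 to 11242194), went the other way between replicates. It had 853 to 1504 CPM (median 1087) in replicate 1 of I02, 1894 to 4009 CPM (median 2477) in replicate 2 and 364 to 2901 CPM (median 898) in the Netherlands lines. The pooled log2 fold change was 1.03 ± 0.24 (adjusted p = 0.0186), and 1.07 in batch 1 alone, where it was not called (adjusted p = 0.0651). Without mtI02_YN07 replicate 2 its adjusted p was 0.0566.

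PGRP-SD, a secreted receptor for bacterial peptidoglycan upstream of these pathways (3L, 7651180 to 7651900), was with Def 1 of 2 immune genes called under every alternative. It had 9.38 to 31.3 CPM (median 18.5) in I02 and 2.88 to 18.3 CPM (median 7.85) in the Netherlands lines, with all 12 I02 libraries above the Netherlands median and 6 above every Netherlands library. It was higher by 1.24 ± 0.21 on the log2 scale (adjusted p = 0.000685), a call made against each line, in batch 1 alone (1.27, adjusted p = 0.00623) and without each library in turn. Among 11 tested peptidoglycan recognition genes it was the 1 called (9.09%, beside 1.39% of all genes), while all 11 were fitted above 0 (median 0.36). None of the 21 tested receptors, adaptors and NF-kappaB factors of the Toll and Imd pathways was called (median 0.10), nor any of the 12 Bomanins, short peptides made on Toll signalling (median 0.12). In whole flies, more cells of a type and more RNA per cell cannot be told apart, here and for the tissues named next.

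Digestive enzymes also had several higher members. Of 16 tested Jonah genes, a family of midgut serine proteases, 4 were higher in I02 (25%, beside 1.39% of all genes) and none lower. Their median log2 fold change was 0.33. Jon25Bi (2L, 4954279 to 4955144) had 581 to 3202 CPM (median 1842) in I02 and 257 to 2321 CPM (median 749) in the Netherlands lines, higher by 1.15 ± 0.25 (adjusted p = 0.00941). The difference was called against N23 (1.78 ± 0.30, adjusted p = 0.000676) and not against N01 (0.74 ± 0.30, adjusted p = 0.251) or N02 (0.92 ± 0.30, adjusted p = 0.264). In N23 this gene had 257 to 1105 CPM (median 475), below N01 with 375 to 2321 CPM (median 907) and N02 with 435 to 1780.3 CPM (median 964), but the test among the Netherlands lines did not call it (adjusted p = 0.339).

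Jon65Ai (3L, 6053493 to 6054443) had 28.4 to 107 CPM (median 69.5) against 7.92 to 63.1 CPM (median 26.2), and 7 of 12 I02 libraries lay above all Netherlands libraries, at 0.89 ± 0.21 on the log2 scale (adjusted p = 0.0223). Jon66Ci was higher by 1.39 ± 0.34 (adjusted p = 0.0243) and Jon25Biii by 0.80 ± 0.21 (adjusted p = 0.0394). In batch 1 alone Jon25Bi was the 1 Jonah gene called (adjusted p = 0.0406). Jonah genes share sequence with each other, so their single levels are uncertain. Summed over the family the level was 5703 to 13890.0 CPM in I02 (median 11070.0) and 4821 to 14270.0 CPM in the Netherlands lines (median 6588). Within the Netherlands lines the median was 7844 CPM in batch 1, the batch of all I02 libraries, and 6223 CPM in batch 2. Between these batches 7 of 16 Jonah genes differed, all lower in batch 2, beside 35.2% of all genes. The lowest I02 sum was that of mtI02_YN03 replicate 1, with 29.2% of reads aligned to several places, and its partner had 10510.0 CPM.

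With the second replicates of I02 only 5 of 16 Jonah genes were called higher, beside 13.6% of all genes called, and with the first replicates only 1 of 16, beside 3.56%. No Jonah gene differed between the replicates themselves. Without mtI02_YB11 replicate 2 the count of 4 was 2. Leaving out 1 library ended the call of Jon25Biii in 13 of 48 fits, that of Jon65Ai without mtI02_YB11 replicate 2 (adjusted p = 0.0529) and that of Jon66Ci without mtI02_YN07 replicate 2 (adjusted p = 0.0604).

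Of 14 tested amylase and maltase genes 3 were higher (21.4%, beside 1.39% of all genes) and none lower, at a median of 0.20. Mal-A4, a maltase that splits sugars in the gut (2R, 8458815 to 8460884), had 71.7 to 236 CPM (median 149.8) in I02 and 40.3 to 136 CPM (median 75.3) in the Netherlands lines. Of the I02 libraries 7 stood above all others and 1 below the Netherlands median, at a log2 fold change of 0.89 ± 0.16 (adjusted p = 0.00129) that was called against each line and in batch 1 alone (adjusted p = 0.0211). Mal-B2 had 416 to 883 CPM (median 595) against 131 to 931 CPM (median 377) and was higher by 0.69 ± 0.17 (adjusted p = 0.0296). Mal-A2 was higher by 0.46 ± 0.12 (adjusted p = 0.0465). Neither was called in batch 1 alone (adjusted p = 0.0951 and 0.19), and the count of 3 was 1 without mtI02_YB11 replicate 2. The call of Mal-A2 was lost in 18 and that of Mal-B2 in 3 of 48 fits without 1 library. Of 14 trypsin genes and 14 gut lipases and lysozymes none was called, with medians of 0.13 and 0.03. With the first replicates of I02 only, 10 of 14 trypsin genes were fitted below 0 and none was called. With the second replicates only, 4 were called higher, beside 13.6% of all genes. Between the replicates 5 trypsin genes differed, all higher in replicate 2, beside 18.7% of all genes.

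Among enzymes of detoxification, 5 of 77 tested cytochrome P450 genes were called (6.49%, beside 1.39% of all genes), 3 higher and 2 lower, at a median of -0.0029. Cyp309a1 had 85.7 to 300.5 CPM (median 135) in I02 and 43.6 to 181 CPM (median 75.8) in the Netherlands lines, higher by 0.72 ± 0.17 (adjusted p = 0.0186). Cyp6a16 (0.63 ± 0.15, adjusted p = 0.0238) and Cyp309a2 (0.39 ± 0.10, adjusted p = 0.0382), the last named after its value was seen, were also higher. Cyp4ac2 had 3.34 to 9.04 CPM (median 4.84) against 3.32 to 15.5 CPM (median 8.74) and was lower at -0.72 ± 0.17 (adjusted p = 0.0223), and it was the 1 member called in batch 1 alone (adjusted p = 0.0406). Cyp6a13 was lower at -0.38 ± 0.09 (adjusted p = 0.0296) and lost its call in 9 of 48 fits without 1 library. Cyp309a1 was not called without mtI02_YB11 replicate 2 (adjusted p = 0.0726), nor Cyp6a16 and Cyp4ac2 without mtI02_YZW139 replicate 2 (adjusted p = 0.0537 and 0.0576), and without that library 1 P450 gene was called. Of 58 tested glutathione S-transferases and UDP-glycosyltransferases 2 were called (3.45%), of which GstE11 was higher (0.44 ± 0.12, adjusted p = 0.0434) and Ugt35E2 lower (-2.09 ± 0.52, adjusted p = 0.0296), the latter at 0 to 0.687 CPM (median 0.111) in I02 and 0 to 3.32 CPM (median 0.627) in the Netherlands lines. Ugt35E2 was not called without mtI02_YN07 or mtI02_YZH23 replicate 2 or mtN02_YZH23 replicate 1 (adjusted p up to 0.0557), and GstE11 was lost in 14 of 48 fits.

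Genes lower in I02 included members of the eye, of hormone breakdown and of neuropeptide precursors. Of 28 tested photoreceptor genes 2 were lower (7.14%, beside 1.39% of all genes), none was higher, and 26 were fitted below 0 (median -0.20). Their summed level had a median of 2869 CPM in I02, with 2512 in replicate 1 and 3221 in replicate 2. In the Netherlands lines it was 2944 CPM, with 3523 in batch 1 and 2841 in batch 2. The gene ninaE, the main rhodopsin of the outer photoreceptors (3R, 19886255 to 19888206), had 101 to 368 CPM (median 229) in I02 and 175 to 693 CPM (median 289) in the Netherlands lines, with 4 I02 libraries below all others, at a log2 fold change of -0.63 ± 0.17 (adjusted p = 0.0455). Rh2, the rhodopsin of the ocelli (3R, 18899423 to 18901019), had 9.09 to 19.8 CPM (median 13.5) against 12.0 to 31.2 CPM (median 18.9), at -0.43 ± 0.11 (adjusted p = 0.0296). In batch 1 alone neither was called (adjusted p = 0.0651 and 0.0904), nor with the first replicates of I02 only. Without mtI02_YB11 replicate 1 no photoreceptor gene was called, and without mtN23_YZW139 replicate 2 it was 4. The call of ninaE was lost in 30 and that of Rh2 in 10 of the 48 fits that left out 1 library.

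Nplp3, a neuropeptide-like precursor (3L, 16318024 to 16318690), had 24.5 to 169 CPM (median 49.7) in I02 and 33.4 to 299.8 CPM (median 79.9) in the Netherlands lines, lower at -0.98 ± 0.24 (adjusted p = 0.0296), and was also called in batch 1 alone (adjusted p = 0.0219). It was the 1 called of 22 neuropeptide genes (4.55%, beside 1.39% of all genes). Its call was lost without mtI02_YN07 replicate 2, mtI02_YZW139 replicate 2 or mtN23_YZW139 replicate 1 (adjusted p up to 0.0684). With the second replicates of I02 only, 5 of the 22 were called, 1 higher and 4 lower, beside 13.6% of all genes. Jhe, the esterase that breaks down juvenile hormone (2R, 16119793 to 16122773), had 1.03 to 5.44 CPM (median 3.18) against 2.83 to 16.2 CPM (median 5.29), with 4 I02 libraries below all others, at -0.93 ± 0.20 (adjusted p = 0.00952). Jhe was not called in batch 1 alone (adjusted p = 0.0651). Other genes among the 12 lowest were chas (-0.98 ± 0.23), Naprt, of NAD synthesis (-0.89 ± 0.24), sxe2 (-0.94 ± 0.24), CG42782 (-1.20 ± 0.30), CG3348 (-0.94 ± 0.25) and CG17127 (-0.93 ± 0.24). None of these 6 was called in batch 1 alone, where the adjusted p was lowest for chas (0.0599) and highest for Naprt (0.181). With the first replicates of I02 only, chas was not called either (adjusted p = 0.0962). Without 1 library chas kept its call, while CG42782 was lost in 4, CG17127 in 9, CG3348 in 15, sxe2 in 17 and Naprt in 25 of the 48 fits.

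Among 51 seminal fluid protein genes 1 was called, a share near the 1.39% of all genes: Sfp78E (-0.38 ± 0.10, adjusted p = 0.0296), while 42 were fitted below 0 (median -0.15). Its call was lost in 11 of 48 fits and in batch 1 alone (adjusted p = 0.157). Hsp83, the cytosolic Hsp90 chaperone (3L, 3192969 to 3197059), was the 1 called of 13 heat shock genes (7.69%, beside 1.39% of all genes). It had 98.2 to 223 CPM (median 161) in I02 and 148 to 380.0 CPM (median 215) in the Netherlands lines, at a log2 fold change of -0.46 ± 0.09 (adjusted p = 0.0061). The difference was largest against N01, at 211 to 380.0 CPM (median 280.2), with -0.83 ± 0.11 (adjusted p = 8.12e-06), while against N23 it was -0.17 ± 0.11 (adjusted p = 0.578). Hsp83 was not called in batch 1 alone (adjusted p = 0.0894), nor with the first replicates of I02 only (0.205). It was also called among the Netherlands lines (adjusted p = 0.000833), and not in batch 1 alone (adjusted p = 0.428). In I02 it was lower in replicate 2 than in replicate 1, at -0.55 (adjusted p = 0.00108). With the second replicates of I02 only, 5 of 13 heat shock genes were called lower, beside 13.6% of all genes. With the first replicates only, none was called. Also among the 12 highest were Fst, which encodes Frost, a protein induced by cold (46.7 to 491 CPM (median 116) in I02, 18.6 to 212 CPM (median 53.3) in the Netherlands lines, 1.33 ± 0.30, adjusted p = 0.0144), and CG45045 (1.90 ± 0.50, adjusted p = 0.0392), lost in 12 of 48 fits. Neither was called in batch 1 alone (adjusted p = 0.0898 and 0.138).

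Most transcripts of the mitochondrial genome itself were fitted on opposite sides of the Netherlands lines with the 2 replicates of I02. Of 36 tested, 33 were fitted above 0 with the first replicates only, and 33 of 35 below 0 with the second only. The called mt:ND3 and mt:ATPase6 were lower in both. Means in replicates 1 and 2 were 5.79 and 2.44 CPM for mt:ND3 and 2158 and 1466 CPM for mt:ATPase6. Netherlands libraries of batch 1 had means of 14.2 and 2661 CPM. With the first replicates only, 11 of 36 tested mitochondrially encoded RNAs were called higher and none lower, at a median log2 fold change of 0.678, beside 3.56% of all genes called. With the second replicates only, 22 of 35 were called lower and none higher, at a median of -1.37, beside 13.6% of all genes. That fit sets them against first replicates of the Netherlands lines (batch 1), so replicate number and haplogroup cannot be told apart there. The fit over both replicates averages these shifts. In it 2 of 36 were lower (5.56%, beside 1.39% of all genes), none was higher, and the median was 0.0015. None of 36 was called in batch 1 alone. The gene mt:ND3, which encodes part of the NADH dehydrogenase complex (mitochondrial genome, 5608 to 5961), had 1.51 to 14.6 CPM (median 3.60) in I02, 5.51 to 41.8 CPM (median 14.4) in N01, 1.63 to 6.01 CPM (median 3.56) in N02 and 2.47 to 31.8 CPM (median 7.88) in N23. I02 and N02 were thus both low. The log2 fold change was -1.47 ± 0.32 over the 3 lines (adjusted p = 0.0109), -2.33 ± 0.35 against N01 (adjusted p = 7.67e-05), -1.79 ± 0.36 against N23 (adjusted p = 0.00614) and -0.27 ± 0.39 against N02 (adjusted p = 0.911). The Netherlands lines also differed among themselves in mt:ND3 (adjusted p = 0.0018), and in batch 1 alone the call was lost (adjusted p = 0.0651).

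The other, mt:ATPase6, a subunit of ATP synthase (mitochondrial genome, 4062 to 4736), had 857 to 2976 CPM (median 1688) in I02 and 1426 to 4315 CPM (median 2578) in the Netherlands lines, with 5 I02 libraries below all others. Its log2 fold change of -0.58 ± 0.16 had an adjusted p of 0.0489, and the call was lost in 37 of the 48 fits without 1 library. With the first replicates of I02 only, the adjusted p was 0.159 for mt:ND3 and 0.317 for mt:ATPase6. The remaining 11 mitochondrial messenger RNAs did not pass the test, with log2 fold changes from -0.37 for mt:ND2 to 0.08 for mt:ND4L. Between the replicates of I02 themselves, 27 of the 36 mitochondrial RNAs were lower in replicate 2 than in replicate 1 and none higher, at a median of -2.11, while 18.7% of all genes differed. The 27 were 21 transfer RNAs, the ribosomal mt:srRNA and the messenger RNAs mt:CoI, mt:ND2, mt:ND6, mt:ND1 and mt:CoII. The share of reads from mitochondrial genes was 1.15% to 5.08% in the first and 0.832% to 3.07% in the second replicates of I02, and 1.27% to 4.55% in the Netherlands lines.

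Nuclear genes of the same machinery gave few calls. None of 40 tested complex I genes (median 0.04), 54 genes of complexes II to V (median 0.02), 71 mitochondrial ribosomal genes (median 0.02) or 31 genes of mitochondrial quality control (median 0.02) was called. With the second replicates of I02 only, 9 of 31 quality control genes, 3 of 71 mitochondrial ribosomal genes, 3 of 54 genes of complexes II to V and 2 of 40 complex I genes were called, all higher, beside 13.6% of all genes. With the first replicates only, 2 of the quality control genes were called and none of the other 3 lists. Of 21 protein import genes 2 were called (9.52%, beside 1.39% of all genes), 1 higher and 1 lower. Tom40, the channel of the outer membrane (X, 7736893 to 7739978), was lower. It had 19.0 to 29.0 CPM (median 24.7) in I02 and 22.8 to 43.8 CPM (median 35.1) in the Netherlands lines, with 3 I02 libraries below all others, at -0.40 ± 0.09 (adjusted p = 0.0104). In batch 1 alone the value was -0.40 and not called (adjusted p = 0.0894). Tom40 was also not called with the first replicates of I02 only. Tim13, a chaperone of the space between the membranes (3L, 11774060 to 11774501), was higher, with 130.2 to 374 CPM (median 192) against 84.2 to 258 CPM (median 123), at 0.49 ± 0.13 (adjusted p = 0.0478). Its call was lost in batch 1 alone (adjusted p = 0.198) and in 20 of the 48 fits without 1 library.

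**Figure D4:**
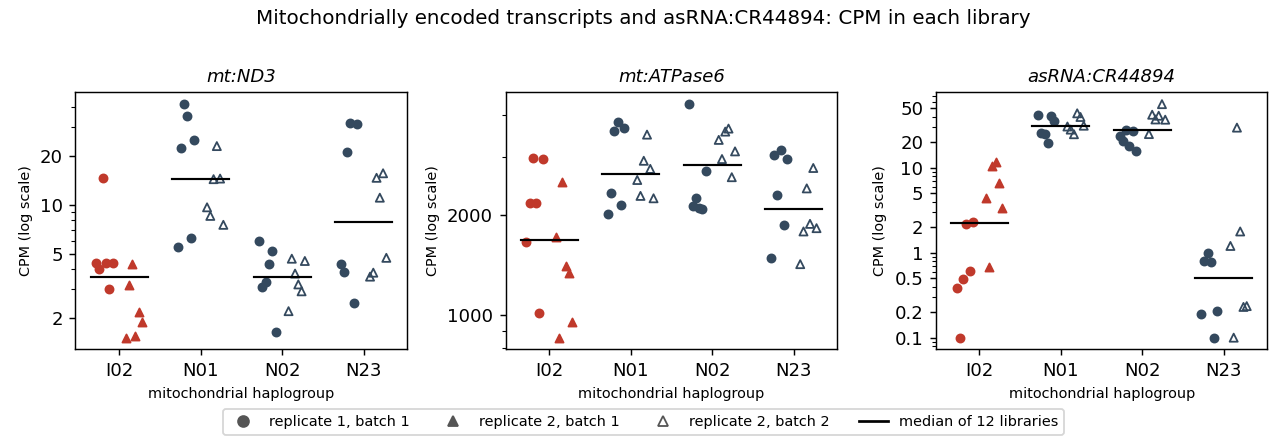
CPM on a log axis in each library of the 4 haplogroups for mt:ND3, mt:ATPase6 and asRNA:CR44894, with circles for replicate 1, filled triangles for replicate 2 of batch 1, open triangles for replicate 2 of batch 2, and a line at the median of 12 libraries. Values below 0.1 CPM are drawn at 0.1. For mt:ND3 the I02 median of 3.60 CPM is near that of N02 (3.56), and for asRNA:CR44894 it lies between N23 (0.505) and the 2 other lines (30.9 and 27.5).

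A noncoding RNA on the X chromosome, asRNA:CR44894 (X, 10114340 to 10208574), placed I02 between the Netherlands lines. I02 had 0 to 11.5 CPM (median 2.24), N01 19.8 to 43.6 CPM (median 30.9), N02 15.8 to 56.0 CPM (median 27.5) and N23 0 to 29.6 CPM (median 0.505). In I02 the second replicate was above the first with each of the 6 Y haplotypes, with 0 to 2.32 CPM (median 0.549) in replicate 1 and 0.687 to 11.5 CPM (median 5.52) in replicate 2. The highest value of N23 was that of mtN23_YN03 replicate 2, far above the other 11 libraries of N23, which reached 1.78 CPM. Whether this library carries a wrong or mixed label was not tested. I02 was lower than N01, at -2.91 ± 0.48 on the log2 scale (adjusted p = 0.000395), and lower than N02, at -2.72 ± 0.49 (adjusted p = 0.0035). Against N23 it was 1.19 ± 0.61 (adjusted p = 0.437), and over the 3 lines -1.48 ± 0.46, not called (adjusted p = 0.09). The transcript runs antisense to other genes, and whether the counting used strand is not given in the sources used here, so reads of the 2 strands may be mixed.

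No call fell in the lists of glycolysis (17 genes tested), cytosolic ribosome (90), proteasome (46), metallothioneins (6), odorant-binding proteins (35), cuticle proteins of the Cpr family (28), circadian clock (13), fat storage and synthesis (19) and testis genes (33). Their median log2 fold changes lay between -0.05 and 0.12. Of the ribosomal protein genes 71 of 90 were fitted above 0, at a median of 0.11, with RpL18 nearest to the threshold (0.59 ± 0.17, adjusted p = 0.0585). With the first replicates of I02 only, 66 of 90 were above 0 and 5 were called higher, beside 3.56% of all genes. With the second replicates only, 42 were above and 48 below 0 (median -0.029). There 8 were called higher and 5 lower, beside 13.6% of all genes.

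**Figure D5:**
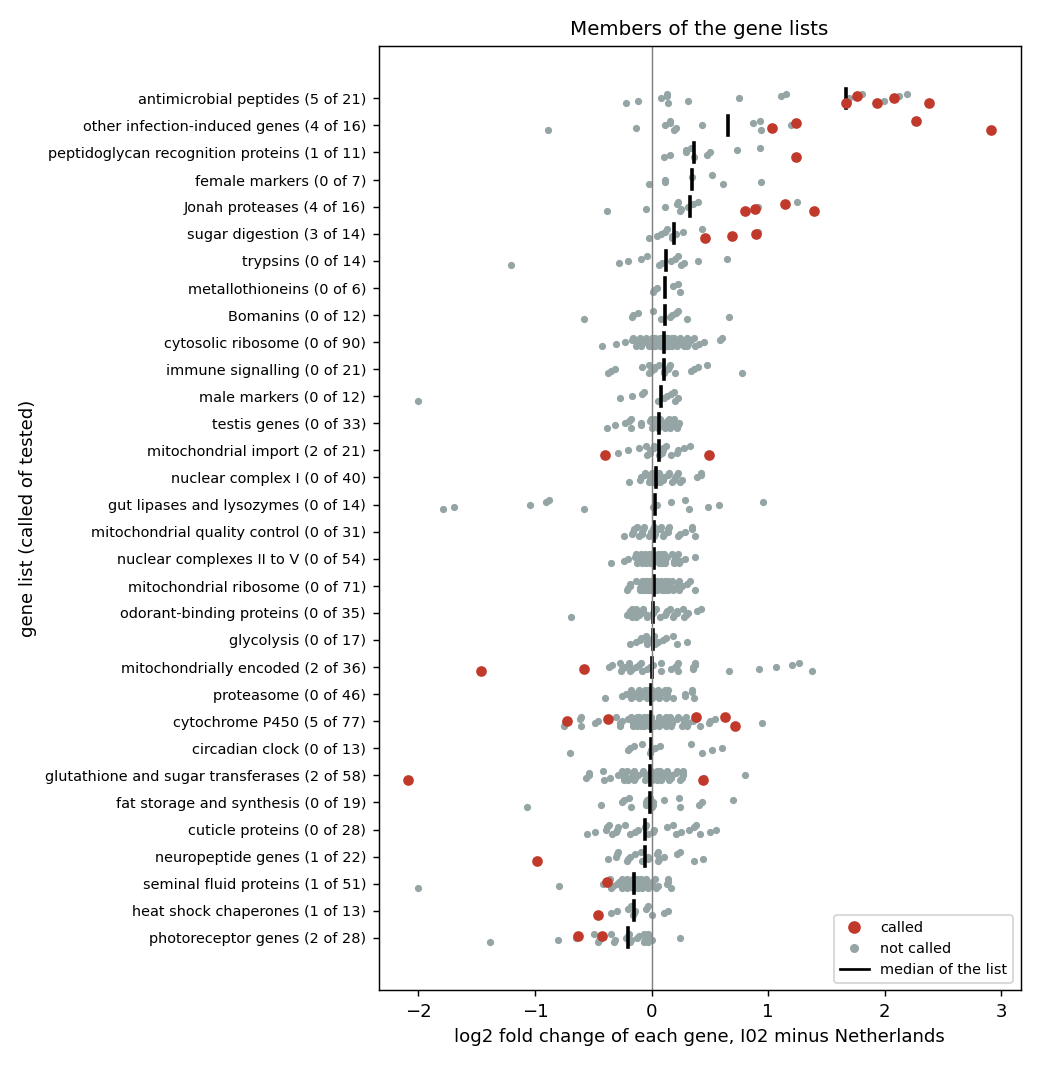
Log2 fold change of I02 minus Netherlands for each tested member of the gene lists, with called genes in red, the others in grey and a black tick at the list's median, ordered by that median. The antimicrobial peptides (5 of 21 called, median 1.67) stand at the top and the photoreceptor genes (2 of 28 called, median -0.20) at the bottom.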

How the data were processed

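Gene counts of 72 libraries, made with a 3' tag kit from whole males, were used as deposited; the authors deposited raw counts of reads per gene. Per the submitters' processing notes, the tools were HTSeq 0.11.0, STAR 2.6, FastQC 0.11.5, Trimmomatic 0.36 and DESeq2. Strand setting and genome build were not given in the sources used here. Coordinates were looked up by gene ID among the Ensembl genes of BDGP6.54, and may not be those of the authors' build.

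The 48 libraries with I02, N01, N02 or N23 mitochondria were fitted with edgeR 4.0.16 in R 4.3.3: TMM scaling, filterByExpr (12262 of 17324 features, 99.9% of counts), quasi-likelihood F test, additive terms for haplogroup, Y haplotype and batch, and Benjamini-Hochberg adjustment over all tested genes (threshold 0.05). The effect was I02 minus the unweighted mean of the 3 Netherlands lines, and ± is the standard error of a log2 fold change. The fit was tested on simulated counts with known changes in I02. These counts had no effects of batch, Y haplotype, replicate or single line, so the simulation cannot say how the fit handles those. DESeq2 1.42.0, limma-voom (limma 3.58.1), other scalings, filters and models, and leaving out each library were alternatives. Intervals from counting would cover counting error only and are not given.

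Named genes were the 12 highest and 12 lowest called fold changes with a mean of at least 2 CPM and the same sign in batch 1, up to 4 called genes per list by smallest p or the member nearest to a call, the 5 smallest p-values among the Netherlands lines, mitochondrial messenger RNAs and asRNA:CR44894. The members and lists were chosen with earlier results of these data known. No sequences are printed.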

Additional observations from a re-analysis of the deposited data

How the results depend on the processing

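Of the 62 named called genes, 10 were called under all 15 alternatives (14 for lncRNA:CR45936, which a stricter filter removed) and without each library: CG2003, CG13309, CG14245, lncRNA:CR45936, kkv, Kaz-m1, PGRP-SD, Gart, Def and CG6839. The 171 calls were 297 with DESeq2, 1601 with no batch term, 31 in batch 1 only, 375 without the libraries over 20% aligned to several places, 268 with that share as a covariate, 78 with all 72 libraries, 446 and 1702 with only the first or second replicates of I02, 82 with replicate 1 libraries only, and 83 to 333 without 1 library. The 3 settings on single replicates were chosen after seeing the data. The 15 alternatives are not separate tests, as several share libraries and estimates by design, such as batch 1 only and the main fit. With DESeq2, no batch term, batch 1 only and the libraries over 20% left out, in that order, the 65 calls against N01 were 211, 735, 9 and 237, and the 31 against N02 were 47, 80, 2 and 61. The 124 against N23 were 475 with no batch term, 12 in batch 1 only and 278 without the libraries over 20%. With all 72 libraries the 3 counts were 42, 18 and 48, and with the covariate that of N01 was 156. Without 1 library they spanned 27 to 156, 19 to 42 and 44 to 186. The 20 calls among the Netherlands lines were 11 with a stricter filter, 5 with limma-voom, 3 in batch 1 only, 6 with the interaction in the model and 14 to 25 without 1 library. By Y haplotype, 0 became 3 with no filter, 39 with DESeq2, 12 with all 72 libraries and 0 to 483 without 1 library, the highest without mtI02_YN03 replicate 2. The causes were not tested.

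A replicate block with batch, in which the replicate term rests on I02, gave 562 calls (105, 362 and 423 against N01, N02 and N23, and 1 by Y haplotype). Only 76 of the 171 were among the 562, and 25 of the 62 named called genes lost their call. With replicate 1 of I02 only 28 of the 62 lost it, among them ninaE, Rh2, Tom40, Tim13, Cyp309a1, Cyp4ac2, CG34180, Mal-B2, Sfp78E and sxe2. With replicate 2 of I02 only it was 18, among them edin, AttD, CecA2, Dro, AttB, IBIN, Nplp3, Cyp6a16, GstE11 and Mal-A2. Of mitochondrially encoded RNAs 12 of 36 were called higher under the block and none lower. Deviations of same-numbered libraries correlated at -0.308 to 0.409 over 18 pairs, 7 of them over 0.1, so the numbers were not taken as pairs.

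Genes that were not called changed sign with the I02 replicates. Under the replicate block with batch, replicate 1 of I02 only and replicate 1 libraries only, the log2 fold change was -0.17, -0.16 and -0.15 for Mst87F, 0.20, 0.21 and 0.18 for mt:ND2, 0.079, 0.089 and 0.088 for mt:ND5, 0.089, 0.094 and 0.034 for mt:CoIII, 0.52, 0.55 and 0.53 for mt:ND6, 0.15, 0.16 and 0.10 for mt:ATPase8, 0.20, 0.21 and 0.21 for mt:ND1 and 0.21, 0.21 and 0.18 for mt:CoII. For mt:ND4 the first 2 were 0.079 and 0.090. With replicate 2 of I02 only it was -0.025 for cwo, -0.17 for Ldh and -0.24 for mt:Cyt-b, and with no batch term 0.091 for mt:ND6, -0.14 for mt:ND4L and -0.36 for mt:Cyt-b. For mt:Cyt-b it was also -0.12 with limma-voom, -0.012 in batch 1 only and -0.15 without the libraries over 20%. Without 1 library it spanned -0.24 to 0.16 for mt:Cyt-b, -0.51 to 0.042 for mt:ATPase8 and -0.23 to 0.0095 for mt:CoII.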

Other observations

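Some called genes outside the lists, singled out after their values were seen, encode enzymes of metabolism. Shmt, which moves a carbon unit from serine to folate, had 149 to 733 CPM (median 415) in I02 and 198 to 571 CPM (median 285) in the Netherlands lines, a log2 fold change of 0.53 ± 0.14 (adjusted p = 0.0394). Sardh, sarcosine dehydrogenase of mitochondria, had 10.1 to 38.4 CPM (median 24.3) against 4.42 to 33.6 CPM (median 10.5), higher by 0.88 ± 0.20 (adjusted p = 0.0144). Faa, of tyrosine breakdown, was fitted at 0.60 ± 0.14 (adjusted p = 0.0144) and SCOT, of ketone body use, at 0.42 ± 0.11 (adjusted p = 0.0449). PPO2, the prophenoloxidase of crystal cells of the blood, had 49.2 to 391 CPM (median 165) in I02 and 56.6 to 165 CPM (median 88.5) in the Netherlands lines, at 0.63 ± 0.17 (adjusted p = 0.0449). In batch 1 alone the adjusted p-values of Shmt, Sardh and PPO2 were 0.201, 0.0651 and 0.188.

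Within I02, 7 of 13 tested clock genes differed between the replicates and all 7 were lower in replicate 2. The gene per, a repressor of the clock, had 11.8 ± 3.15 CPM in replicate 1 and 6.01 ± 1.44 CPM in replicate 2 (SD, n = 6 libraries each, edgeR adjusted p = 0.00348), and cwo, another repressor, had 70.0 ± 35.1 and 35.4 ± 8.05 CPM (edgeR adjusted p = 0.00215). Over all genes 18.7% differed between these replicates. The times of collection are not given in the labels, and their part in these values was not tested.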
